A study of Saccharomyces cerevisiae with 24 samples.

Results

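The genes described here are 45 yeast genes of homologous recombination, replication fork repair and the DNA damage checkpoint, taken by name from a list and found in all 3 deposited expression tables. Each table is counted with 6664 genes. Before the filter on low values the fits held 6672 features in the mus81, 6666 in the hst3 hst4 and 6668 in the translocation table. All 45 passed the filter on low values in each table. The study measured polyadenylated RNA in budding yeast (Saccharomyces cerevisiae) diploids of the mother enrichment program, a genetic system in which β-estradiol stops daughter cells from dividing so that aged mothers can be collected. Cells grew in YPD, a rich glucose medium. Log-phase cells were harvested from the growing culture, and aged mothers were recovered by their biotin label after 24 or 48 h.

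The first set has 12 libraries: a mus81 mutant and its own wild type, each with 2 libraries from log-phase cells, 2 from 24 h mothers and 2 from 48 h mothers. The second set has 6 libraries titled by HST3/4: the hst3 hst4 strain aged and at log phase, with 2 libraries each, and its own wild type aged and at log phase, with 1 library each. Their titles give 48 h and their age field 24 h, so these cells are called aged here, and their genotype field reads wild type throughout. HST3 had 6 and 10 reads in aged and 3 and 2 reads in log-phase libraries titled HST3/4, against 319 and 278 reads in the wild-type ones. HST4 had 1 and 1, and 0 and 0 reads, against 87 and 90 reads in the same order. These counts go with the titles. The third set has 6 libraries of a/a Tom70-GFP diploids, labelled as without I-SceI, with 1 library per strain and age: the translocation strain XIIr<>V, whose genotype field gives XII<>V, and an ADE2 pGST-V-U control, both at log phase, 24 h and 48 h. Nothing in the labels says whether replicates came from separate cultures, so the p-values rest on the spread among libraries, which may be technical.

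Libraries held 1656535 to 11330955 reads. The smallest was wild type 24 h, replicate 2, of the mus81 set. Apart from MUS81 itself, a member had between 13 reads (RAD10) and 1228 reads (RFA1) per library in the mus81 set, and TOP3 had as few as 17 and 5 reads in the hst3 hst4 and translocation sets. Values are log2 of scaled reads as deposited, and changes are differences of log2 values with limma standard errors. A gene is called where limma's Benjamini-Hochberg adjusted p over all features of the set was under 0.05. RNA was taken from whole populations and scaled to the library, so fewer cells of a type and less RNA per cell cannot be told apart.

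Homologous recombination restores broken or stalled replication forks from a matching sequence. Broken ends are resected by nucleases, the single strand is coated by the RPA trimer, Rad52 and its partners promote strand exchange, and the joined molecules are taken apart by helicases with a topoisomerase or cut by structure-selective nucleases such as Mus81-Mms4. The Mec1 and Tel1 kinases report the damage through Rad9 and Rad53. In ageing yeast mothers the tandem ribosomal DNA repeats are the best known substrate, because recombination within them releases extrachromosomal rDNA circles that accumulate in the mother. Hst3 and Hst4 are sirtuins that remove the acetyl mark that Asf1 and Rtt109 place on newly made histone H3. Many replication genes are driven at the start of S phase by MBF, a factor that binds the MluI cell-cycle box.

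The sequence around the start codon was read for every gene, from 250 bases before to 50 bases after it, on the R64 build the submitters' processing notes name. The MluI cell-cycle box core ACGCGT, which reads the same on both strands, was in 9 of 45 windows (20%), those of MMS4, RFA1, RFA2, RAD17, MRC1, TOF1, CSM3, CTF4 and ASF1, and in 184 of 6001 windows of protein-coding genes (3.07%). The stress element AGGGG or its complement CCCCT was in 5 windows (11.1%), of MUS81, YEN1, TOP3, RAD55 and RFA1, and in 1297 of all (21.6%). The core of the meiotic URS1 element, AGCCGCC or GGCGGCT, was in 0 of 45 windows and in 130 of all (2.17%). The RFA1 window was the single one of the 45 with 2 of these motifs, and they did not overlap. Its stress element began at position 22, past the start codon and so not upstream of the gene.

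The windows of the 3 RPA genes are shown because in the mus81 set RFA1 was lower and RFA3 higher at 48 h, while in hst3 hst4 cells both were lower with age. ACGCGT is in capitals.
RFA1, chrI:158570-158869, reverse strand: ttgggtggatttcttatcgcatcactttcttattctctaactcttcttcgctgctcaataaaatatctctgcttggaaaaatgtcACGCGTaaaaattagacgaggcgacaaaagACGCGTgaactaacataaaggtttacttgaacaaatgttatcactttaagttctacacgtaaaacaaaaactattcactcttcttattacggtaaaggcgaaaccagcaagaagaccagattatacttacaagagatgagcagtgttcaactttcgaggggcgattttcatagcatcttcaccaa
RFA2, chrXIV:48037-48336, forward strand: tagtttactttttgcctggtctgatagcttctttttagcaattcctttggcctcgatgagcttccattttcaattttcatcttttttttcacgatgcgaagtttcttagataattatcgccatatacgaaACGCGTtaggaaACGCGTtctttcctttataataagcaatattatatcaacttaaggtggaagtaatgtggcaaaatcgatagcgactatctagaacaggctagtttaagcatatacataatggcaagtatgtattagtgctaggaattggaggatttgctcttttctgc
RFA3, chrX:96480-96779, reverse strand: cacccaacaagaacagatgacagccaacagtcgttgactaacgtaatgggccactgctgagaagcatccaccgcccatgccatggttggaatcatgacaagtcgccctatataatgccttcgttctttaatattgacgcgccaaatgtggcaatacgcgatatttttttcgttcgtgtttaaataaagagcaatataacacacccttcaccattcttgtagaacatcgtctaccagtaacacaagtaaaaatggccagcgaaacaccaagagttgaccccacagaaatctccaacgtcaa
RFA1 holds 2 copies, which begin at positions -165 and -135 relative to the start codon, and RFA2 holds 2 copies, at -120 and -108. RFA3 holds 0. The windows of RMI1 and MEC3 are shown because they had the largest called increases of the list at 48 h in wild-type cells, and that of RDH54 because it had the largest called difference between hst3 hst4 and wild type at log phase.
RMI1, chrXVI:503267-503566, forward strand: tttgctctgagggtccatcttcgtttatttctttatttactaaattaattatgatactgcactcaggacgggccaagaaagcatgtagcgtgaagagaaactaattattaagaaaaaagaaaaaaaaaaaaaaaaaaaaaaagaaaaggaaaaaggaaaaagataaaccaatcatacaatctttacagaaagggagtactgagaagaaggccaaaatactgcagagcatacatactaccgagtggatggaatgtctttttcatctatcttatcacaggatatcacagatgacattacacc
MEC3, chrXII:714855-715154, reverse strand: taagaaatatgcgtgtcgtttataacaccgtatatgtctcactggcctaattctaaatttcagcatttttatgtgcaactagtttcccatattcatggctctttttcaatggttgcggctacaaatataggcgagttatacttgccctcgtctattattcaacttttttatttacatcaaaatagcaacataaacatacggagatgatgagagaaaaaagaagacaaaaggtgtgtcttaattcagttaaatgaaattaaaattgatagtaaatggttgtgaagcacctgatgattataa
RDH54, chrII:382862-383161, forward strand: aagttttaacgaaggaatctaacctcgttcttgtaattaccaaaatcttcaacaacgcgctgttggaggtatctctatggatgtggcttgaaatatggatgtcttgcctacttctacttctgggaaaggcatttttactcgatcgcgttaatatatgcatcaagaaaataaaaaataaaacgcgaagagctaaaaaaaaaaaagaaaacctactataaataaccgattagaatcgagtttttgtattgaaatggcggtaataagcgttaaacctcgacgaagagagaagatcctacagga
The windows of RMI1, MEC3 and RDH54 hold 0 copies of ACGCGT. At 48 h against log phase, 2 of the 9 genes with the core were higher and 3 were lower in mus81 cells, where 60.2% of all features were called, and 2 were higher and 3 lower in wild-type cells, where 63.1% were called. Of the 36 without it, 13 were higher and 4 lower in mus81 cells, and 13 were higher and 5 lower in wild-type cells. Between aged and log-phase hst3 hst4 cells, 0 of the 9 were higher and 1 lower, and 19 of the 36 were higher and 2 lower, where 52.2% of all features were called. The difference between the genes with and without the core was not tested. A match is a description of the letters and not a binding site.

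MUS81 (YDR386W, chrIV:1246084-1247982), the catalytic subunit of the Mus81-Mms4 nuclease, checks the labels of the first set. It had 10 and 0 reads at log phase, 10 and 2 at 24 h and 2 and 10 at 48 h in mus81 libraries, against 117 and 107, 150 and 39, and 149 and 161 reads in wild-type libraries. The groups did not overlap at any age. On the log2 scale the fitted difference between mus81 and wild type was -5.46 ± 0.83 at log phase, -4.83 ± 0.83 at 24 h and -5.51 ± 0.83 at 48 h. The limma adjusted p was 0.00561, 0.0206 and 0.00753. Their size depends on the 0.9 reads that the deposited values enter for 0. The calls were lost with no variance trend, the log-phase one also after quantile normalization (-5.10), and each was lost when a mus81 library with 0 or 2 reads was left out (-4.11 without the second log library, -3.83 without the second 24 h library, -4.30 without the first 48 h library). At 24 h the call was also lost without the second wild-type library (-4.91), and at 48 h without either wild-type library (-5.43 without the first and -5.59 without the second).

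Between mus81 and wild type at the same age, MUS81 was the single member called, at log phase, 24 h and 48 h, where 0.405%, 0.93% and 0.24% of all 6669 features were called. For the other 44 genes the difference ran from -0.68 (ASF1) to 0.51 (RAD17) at log phase, from -0.47 (SAE2) to 0.89 (MEC3) at 24 h and from -0.29 (RAD55) to 0.50 (MEC3) at 48 h. The 95% interval lay within 2-fold either way for 42, 41 and 44 of them, so that larger differences are outside the interval for these genes. At an unadjusted p under 0.05 there were 2 (RDH54 and ASF1) at log phase, 4 (RAD9, MPH1, MEC3 and MMS1) at 24 h and 1 (MEC3) at 48 h. MMS4, the partner subunit of Mus81, did not differ detectably. MMS4 had log2 values of 6.26 and 6.57 at log phase, 6.70 and 6.46 at 24 h and 6.59 and 6.98 at 48 h in mus81 cells, against 6.24 and 6.32, 6.34 and 6.80, and 6.48 and 7.0 at the same ages in wild-type cells. The libraries of the 2 strains overlapped at every age, and the interval of the difference at 48 h was -0.47 to 0.57. The change with age did not differ between the strains for any member at an adjusted p under 0.05: 0 of 45 were called at 24 h and 0 at 48 h, beside 0.015% and 0.12% of all features, and 1 member was under an unadjusted p of 0.05 each time (MEC3 at 24 h, ASF1 at 48 h). MEC3 at 24 h (0.89 ± 0.20, adjusted p = 0.0522) was called with the length trend removed, with the replicate block and with a mean above the 25th percentile. Without the first wild-type 24 h library, which leaves the smallest library alone in its group, RAD9, MPH1 and MEC3 were called beside MUS81 at 24 h, 4 members in all, and the 24 h change of MEC3 differed between the strains. Without either wild-type 24 h library ASF1 was called at log phase, 2 members in all, as it was with the block by library tag.

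**Figure D1:**
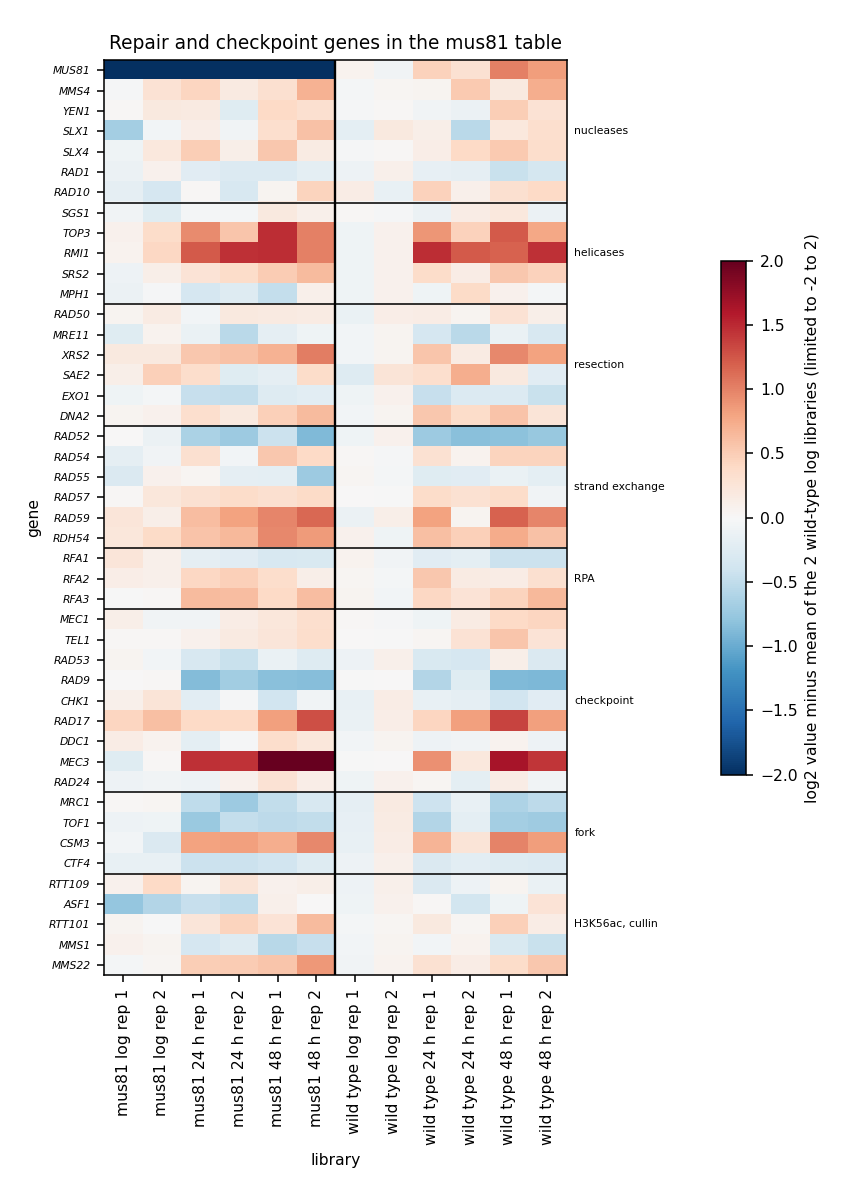
Log2 value of each of the 45 genes in the 12 libraries of the mus81 set, as the difference from the mean of the 2 wild-type log libraries (colour, red above and blue below), with mus81 columns left of wild-type columns and rows grouped by role. MUS81 is low in all 6 mus81 libraries, and RMI1, MEC3 and CSM3 are red at 24 and 48 h in both strains while RAD52 and RAD9 are blue.

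In the mus81 set a smaller share of these genes than of all features was called with age, and their changes were smaller at the median. The median length was 2080 bases for the members and 1090 for all features. Per length, the members' median level in wild-type 24 h cells was at percentile 28.9 of all features. The part of level and length in these shares was not tested. At 48 h against log phase 22 of 45 were called in mus81 cells, 15 higher and 7 lower, where 60.2% of all features were called (30.7% higher, 29.5% lower). In wild-type cells 23 were called, 15 higher and 8 lower, beside 63.1% of all features (33.1% higher, 30.1% lower). As shares, 33.3% of the members were higher in each strain, and 15.6% (mus81) and 17.8% (wild type) were lower. At 48 h the smaller share thus lay in the lower calls. The median size of the change, whatever its sign, was 0.43 for the members and 0.71 for all features in mus81 cells, and 0.42 and 0.77 in wild-type cells. The 2 strains shared 12 higher and 6 lower calls, and no member was called in opposite directions. The same overlap over all features is not given here, so these counts are not read as particular to the members. The 12 were RMI1, TOP3, SRS2, XRS2, DNA2, RAD54, RAD59, RDH54, RFA3, MEC3, CSM3 and MMS22, and the 6 were RAD52, RFA1, RAD9, MRC1, TOF1 and MMS1. RMI1, MEC3, CSM3, RDH54, SRS2 and RAD9 were called in both strains under every one of the 22 alternatives tried. At 24 h 12 members were called in mus81 cells, 5 higher and 7 lower, beside 52% of all features (26.3% higher, 25.7% lower). In wild-type cells 10 were called at 24 h, 7 higher and 3 lower, beside 48.6% (24.4% higher, 24.2% lower), but 5 or 3 without the first or second wild-type log library and 4 without the first 24 h library. Between 24 and 48 h, 0 members were called by limma in mus81 cells, beside 6.34% of all features (0.99% higher, 5.35% lower), with 5 under an unadjusted p of 0.05, and 2 by voom on the recovered reads. In wild-type cells 3 were called between 24 and 48 h, MEC3 higher and RAD9 and MMS1 lower, beside 21.8% (9.06% higher, 12.7% lower). That count was 9 without the first 24 h library, 1 without the second, and 0 and 1 without the first and second 48 h library. Quantile normalization moved the median of all genes at 48 h from 0.15 to -0.11 in wild-type cells and from 0.11 to -0.09 in mus81 cells, against which the values below are to be read.

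**Figure D2:**
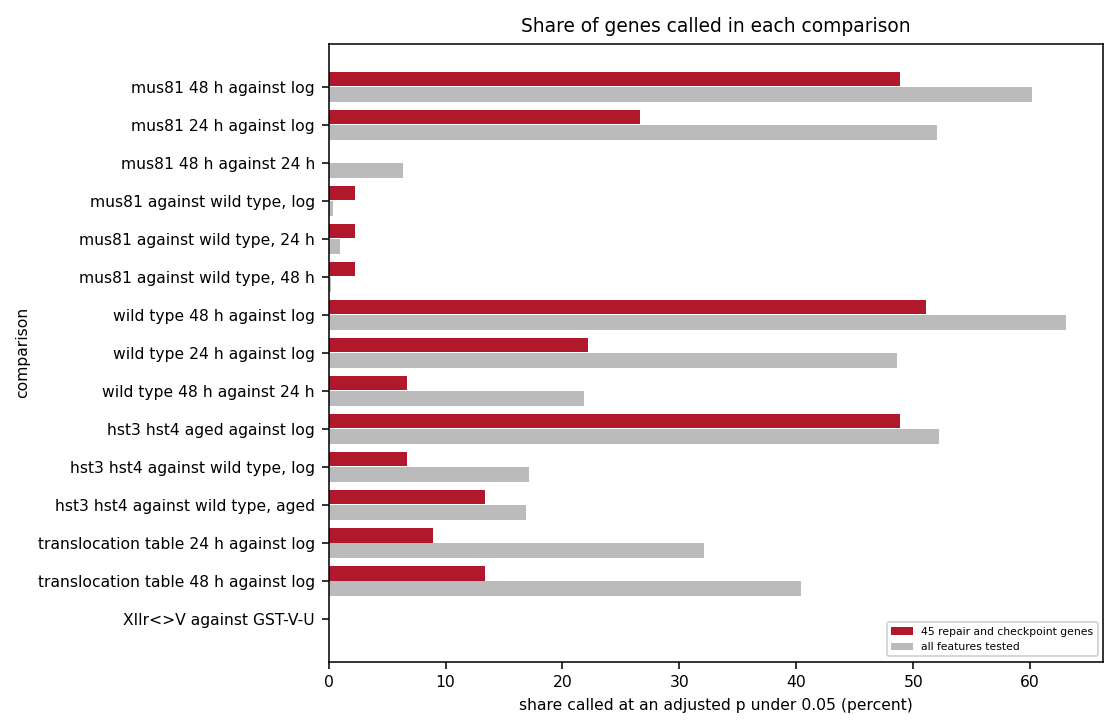
Share of genes called at an adjusted p under 0.05 (horizontal axis, percent) in 15 comparisons with a test, for the 45 genes (red) above all features tested (grey). In the comparisons of age the red bar is shorter than the grey one: 48.9% against 60.2% in mus81 and 51.1% against 63.1% in wild-type cells at 48 h.

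**Figure D3:**
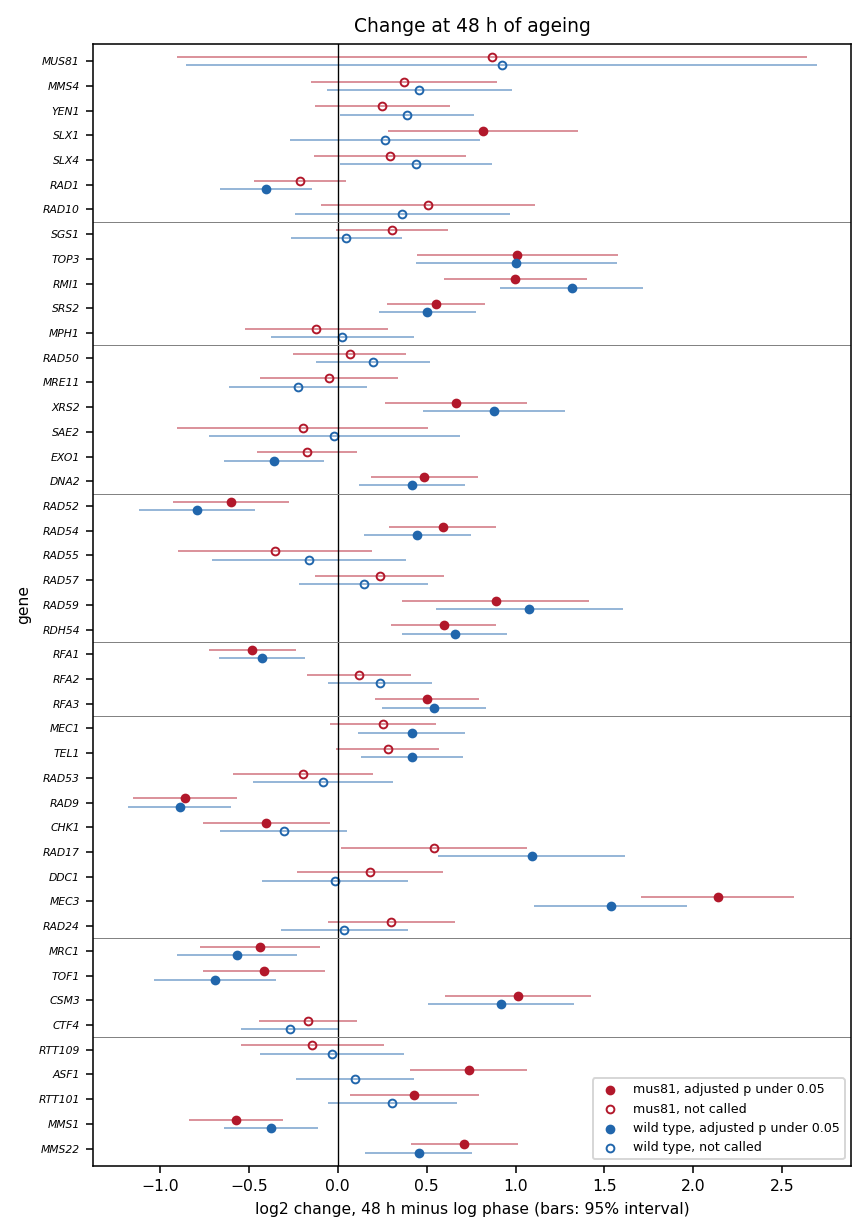
Change of each gene at 48 h against log phase (horizontal axis, log2) in mus81 (red, upper of each pair) and wild-type cells (blue, lower), with 95% intervals, filled where called. MEC3 has the largest value in both strains, 2.14 and 1.53, and RAD9 the lowest, -0.86 and -0.89.

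Among the structure-selective nucleases, 1 of 7 was higher and 0 lower at 48 h in mus81 cells, and 0 were higher and 1 lower in wild-type cells. SLX1 is the catalytic subunit of Slx1-Slx4, which cuts branched DNA. SLX1 had log2 values of 6.40 and 7.03 at log phase, 7.21 and 7.0 at 24 h and 7.40 and 7.66 at 48 h in mus81 cells, against 6.87 and 7.28, 7.19 and 6.54, and 7.28 and 7.40 at the same ages in wild-type cells. Both mus81 48 h libraries were above both mus81 log libraries, while in wild-type cells the lower 48 h library and the higher log library were level. The change at 48 h was 0.82 ± 0.25, adjusted p = 0.0105, in mus81 cells, against 0.27 ± 0.25 (not called, adjusted p = 0.364) in wild-type cells. The mus81 call was lost after quantile normalization (0.44) and without the first log (0.50) or the second 48 h library (0.69). RAD1, which with Rad10 cuts at the edge of single-stranded flaps, was lower in wild-type cells, -0.40 ± 0.12, adjusted p = 0.00884. That call was lost after quantile normalization (-0.24), with the length trend removed (-0.21), and without the second log (-0.30) or the first 48 h library (-0.36). YEN1, a Holliday junction resolvase, gave 0.25 ± 0.18 in mus81 and 0.39 ± 0.18 in wild-type cells and was not called. MMS4, SLX4 and RAD10 were called in no comparison. RAD10 overlaps YML096W on the other strand, and MMS4 overlaps YBR099C.

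The helicase group held 3 genes that were higher at 48 h in both strains, of 5, and 0 that were lower. RMI1 (YPL024W, chrXVI:503517-504242) is a subunit of the Sgs1-Top3-Rmi1 complex, which dissolves double Holliday junctions without crossing over. RMI1 had log2 values of 7.14 and 7.48 at log phase, 8.29 and 8.53 at 24 h and 8.54 and 8.08 at 48 h in mus81 cells, against 6.98 and 7.15, 8.54 and 8.30, and 8.24 and 8.52 at the same ages in wild-type cells. Every aged library of either strain was above every log library. The change at 48 h was 1.0 ± 0.19, adjusted p = 0.000297, in mus81 cells and 1.32 ± 0.19, adjusted p = 2.1e-05, in wild-type cells, and at 24 h it was 1.09 ± 0.19 and 1.35 ± 0.19. SRS2, a helicase that limits recombination, was higher by 0.55 ± 0.13, adjusted p = 0.00163, and by 0.50 ± 0.13, adjusted p = 0.00301. SRS2 had log2 values of 8.61 and 8.82 at log phase, 8.98 and 9.07 at 24 h and 9.21 and 9.33 at 48 h in mus81 cells, against 8.62 and 8.79, 9.07 and 8.85, and 9.25 and 9.17 at the same ages in wild-type cells. Its 48 h libraries lay above all log libraries of the same strain. TOP3, the topoisomerase of the complex, is the lowest of the 45 genes per length, at 4.46 (log2 value per kilobase) in wild-type log cells. TOP3 had log2 values of 5.53 and 5.81 at log phase, 6.38 and 6.0 at 24 h and 6.91 and 6.45 at 48 h in mus81 cells, against 5.35 and 5.53, 6.33 and 5.91, and 6.67 and 6.22 at the same ages in wild-type cells. Its 48 h libraries were above all log libraries of their strain. Its change was 1.01 ± 0.26, adjusted p = 0.00404, in mus81 and 1.0 ± 0.26, adjusted p = 0.00388, in wild-type cells, but after quantile normalization it was 0.20 in mus81 and reversed to -0.03 in wild-type cells, neither called. The TOP3 calls were also lost without the first 48 h library of the strain (0.78 in mus81, 0.78 in wild type), and TOP3 overlaps YLR235C on the other strand. SGS1, the helicase of the same complex, was not called: 0.30 ± 0.15 in mus81 and 0.05 ± 0.15 in wild-type cells. MPH1, a helicase that unwinds displacement loops, gave -0.12 ± 0.19 and 0.03 ± 0.19 and was not called in any comparison.

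In the end-resection group 2 of 6 were higher and 0 lower in mus81 cells, and 2 were higher and 1 lower in wild-type cells at 48 h. XRS2 is the subunit of the Mre11-Rad50-Xrs2 complex that carries the others into the nucleus. XRS2 had log2 values of 6.83 and 6.83 at log phase, 7.17 and 7.23 at 24 h and 7.33 and 7.66 at 48 h in mus81 cells, against 6.58 and 6.68, 7.19 and 6.80, and 7.59 and 7.44 at the same ages in wild-type cells. All 48 h libraries were above all log libraries of their strain. XRS2 changed by 0.67 ± 0.19, adjusted p = 0.00624, in mus81 and by 0.88 ± 0.19, adjusted p = 0.000781, in wild-type cells, whereas its partners gave 0.07 ± 0.15 and 0.20 ± 0.15 (RAD50) and -0.05 ± 0.18 and -0.22 ± 0.18 (MRE11) and were not called. The XRS2 calls were lost after quantile normalization (0.32 in mus81, 0.45 in wild type), and the mus81 one without the second 48 h library (0.50). DNA2, a nuclease and helicase of long-range resection, changed by 0.49 ± 0.14, adjusted p = 0.00718, and by 0.42 ± 0.14, adjusted p = 0.0169. It lost its call without the second mus81 48 h library (0.41), without the first wild-type log (0.36) or 48 h library (0.26), and in wild type after median centring (0.30). EXO1, the other long-range nuclease, was lower in wild-type cells (-0.36 ± 0.13, adjusted p = 0.0274) and gave -0.17 ± 0.13 in mus81 cells, not called. The wild-type call was lost without the second log (-0.27) or the second 48 h library (-0.27), after quantile normalization (-0.32) and with the length trend removed (-0.13). SAE2, which activates Mre11, was not called.

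The strand-exchange genes divided. RAD52 (YML032C, chrXIII:212515-213930), which mediates strand exchange and anneals strands, was lower with age in both strains, while RAD59, RDH54 and RAD54 were higher. RAD52 had log2 values of 8.85 and 8.73 at log phase, 8.22 and 8.12 at 24 h and 8.42 and 7.96 at 48 h in mus81 cells, against 8.76 and 8.93, 8.12 and 8.01, and 8.03 and 8.08 at the same ages in wild-type cells. No aged library reached a log library. RAD52 changed by -0.60 ± 0.15, adjusted p = 0.0032, in mus81 and by -0.79 ± 0.15, adjusted p = 0.000363, in wild-type cells at 48 h, and by -0.62 ± 0.15 and -0.78 ± 0.15 at 24 h, all called. The mus81 call at 48 h was lost without the second 48 h library (-0.37). RAD59, a paralog of Rad52 in strand annealing, had higher values with age. RAD59 had log2 values of 6.10 and 5.97 at log phase, 6.48 and 6.67 at 24 h and 6.84 and 7.01 at 48 h in mus81 cells, against 5.74 and 5.98, 6.67 and 5.91, and 7.03 and 6.84 at the same ages in wild-type cells. At 48 h all libraries were above the log libraries, and at 24 h the second wild-type library lay between the wild-type log libraries. The RAD59 changes were 0.89 ± 0.25, adjusted p = 0.00577, and 1.08 ± 0.25, adjusted p = 0.00138, and both calls were lost after quantile normalization (0.24 and 0.31). RDH54 (YBR073W, chrII:383112-385988) is a Rad54-like DNA translocase. RDH54 had log2 values of 7.84 and 7.98 at log phase, 8.18 and 8.25 at 24 h and 8.56 and 8.45 at 48 h in mus81 cells, against 7.69 and 7.52, 8.22 and 8.08, and 8.34 and 8.19 at the same ages in wild-type cells. Its 48 h libraries were above all log libraries of their strain. Its changes were 0.60 ± 0.14, adjusted p = 0.00165, and 0.66 ± 0.14, adjusted p = 0.000714, and it was called at 24 h in wild-type cells (0.54 ± 0.14). RAD54, a DNA translocase of strand exchange, changed by 0.59 ± 0.14 and 0.45 ± 0.14 (adjusted p = 0.00211 and 0.012). Its wild-type call was lost without the second log (0.43) or the first 48 h library (0.45). RAD55 and RAD57, which encode a heterodimer that aids strand exchange, gave -0.35 ± 0.26 and 0.24 ± 0.17 in mus81 cells and -0.16 ± 0.26 and 0.15 ± 0.17 in wild-type cells, not called.

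The RPA trimer did not move as one in the mus81 set. RFA1 had log2 values of 9.40 and 9.24 at log phase, 8.97 and 8.92 at 24 h and 8.83 and 8.85 at 48 h in mus81 cells, against 9.23 and 9.07, 8.92 and 8.95, and 8.72 and 8.73 at the same ages in wild-type cells. RFA1 (YAR007C, chrI:156754-158619), the large DNA-binding subunit, was below its log values in both 48 h libraries of each strain, a change of -0.48 ± 0.11, adjusted p = 0.00196, in mus81 and -0.43 ± 0.11, adjusted p = 0.00428, in wild-type cells. RFA3 had log2 values of 7.84 and 7.87 at log phase, 8.49 and 8.46 at 24 h and 8.25 and 8.47 at 48 h in mus81 cells, against 7.90 and 7.80, 8.25 and 8.13, and 8.28 and 8.49 at the same ages in wild-type cells. RFA3 (YJL173C, chrX:96161-96529), the small subunit, was above its log values in every aged library, by 0.50 ± 0.14, adjusted p = 0.00533, and 0.54 ± 0.14, adjusted p = 0.00303, at 48 h. RFA2 had log2 values of 9.07 and 9.04 at log phase, 9.35 and 9.41 at 24 h and 9.30 and 9.05 at 48 h in mus81 cells, against 8.97 and 8.90, 9.47 and 9.11, and 9.09 and 9.26 at the same ages in wild-type cells. RFA2, the middle subunit, was not called at 48 h (0.12 ± 0.14 and 0.24 ± 0.14) and was called at 24 h in wild-type cells (0.35 ± 0.14, adjusted p = 0.0434), a call kept in 9 of 22 alternatives. It was lost after median centring (0.29), with no variance trend, with the block by library tag, with only the groups compared and in 9 fits without 1 library, at 0.17 without the first 24 h library. The RFA1 call in wild-type cells was lost with the length trend removed (-0.21) and without the first log library (-0.35), and the RFA3 call in mus81 cells without the second 48 h library (0.39). Of the 3 windows printed above, those of RFA1 and RFA2 hold ACGCGT and that of RFA3 does not. Of the 9 members with this core, 2 were higher and 3 lower at 48 h in each strain, and its part was not tested.

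Among the checkpoint genes at 48 h, 1 of 9 was higher and 2 were lower in mus81 cells, and 4 were higher and 1 lower in wild-type cells. MEC3 (YLR288C, chrXII:713480-714904) is a subunit of the ring-shaped checkpoint clamp that is loaded at damaged DNA. MEC3 had log2 values of 6.41 and 6.69 at log phase, 8.12 and 8.11 at 24 h and 8.68 and 8.69 at 48 h in mus81 cells, against 6.66 and 6.66, 7.57 and 6.87, and 8.30 and 8.08 at the same ages in wild-type cells. All aged libraries were above all log libraries, the second wild-type 24 h library by the least. MEC3 changed by 2.14 ± 0.20, adjusted p = 4.24e-07, in mus81 and by 1.53 ± 0.20, adjusted p = 9.2e-06, in wild-type cells at 48 h. At 24 h the changes were 1.56 ± 0.20 and 0.56 ± 0.20, and the wild-type one was lost without the first log library (0.56), the second log library (0.56) or the first 24 h library (0.21), after quantile normalization (0.26), with no variance trend and with only the groups compared. RAD17, another clamp subunit, was higher in wild-type cells. RAD17 had log2 values of 6.27 and 6.45 at log phase, 6.25 and 6.25 at 24 h and 6.67 and 7.14 at 48 h in mus81 cells, against 5.72 and 5.98, 6.28 and 6.67, and 7.21 and 6.67 at the same ages in wild-type cells. Its changes at 48 h were 0.54 ± 0.24 (not called, adjusted p = 0.0683) in mus81 cells and 1.09 ± 0.24, adjusted p = 0.00122, in wild-type cells, which was lost after quantile normalization (0.32). The third clamp subunit, DDC1, gave 0.18 ± 0.19 and -0.02 ± 0.19 and the clamp loader subunit RAD24 gave 0.30 ± 0.17 and 0.04 ± 0.17, neither called. RAD9 (YDR217C, chrIV:899551-903480), the adaptor that brings the Rad53 kinase to Mec1, went the other way. RAD9 had log2 values of 8.93 and 8.95 at log phase, 8.05 and 8.23 at 24 h and 8.09 and 8.07 at 48 h in mus81 cells, against 8.91 and 8.94, 8.34 and 8.68, and 8.04 and 8.03 at the same ages in wild-type cells. Every aged library was below every log library of its strain, and the changes were -0.86 ± 0.14, adjusted p = 6.54e-05, and -0.89 ± 0.14, adjusted p = 4.18e-05. MEC1 and TEL1, the sensor kinases, were higher in wild-type cells (0.42 ± 0.14 and 0.42 ± 0.13) and gave 0.26 ± 0.14 and 0.28 ± 0.13 in mus81 cells, not called. Both wild-type calls were lost after median centring (0.29 and 0.30) and with the length trend removed (0.13 and 0.05). MEC1 also lost it without any one of the 4 wild-type log and 48 h libraries (0.39 to 0.44), and TEL1 without the second log (0.41) or the first 48 h library (0.28). CHK1, an effector kinase, was lower in mus81 cells (-0.40 ± 0.17, adjusted p = 0.0496), a call lost in 9 of the alternatives, among them leaving out the first 48 h (-0.25) or either log library (-0.48 and -0.33). The Rad53 kinase gene gave -0.20 ± 0.18 and -0.08 ± 0.18, not called.

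**Figure D4:**
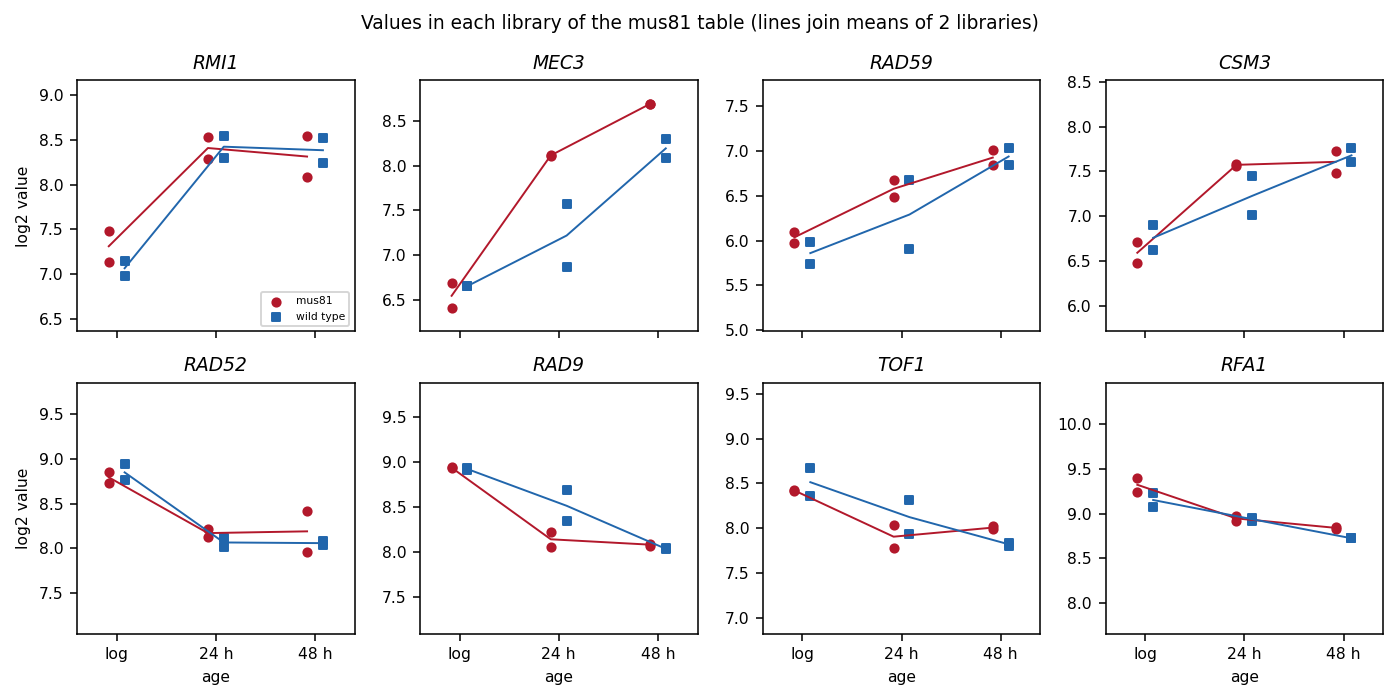
Log2 values (vertical axes, with equal spans but different positions) of 8 genes in each library of the mus81 set at log phase, 24 h and 48 h (horizontal axis), with mus81 as red circles and wild type as blue squares and lines through the means of 2 libraries. RMI1, MEC3, RAD59 and CSM3 stand higher at 48 h than at log phase in both strains, and RAD52, RAD9, TOF1 and RFA1 lower.

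The fork protection genes moved apart as well. CSM3 (YMR048W, chrXIII:366981-367934) and TOF1 encode a heterodimer that travels with the replisome and pauses forks at protein barriers such as the one in the ribosomal DNA, and MRC1 encodes their checkpoint mediator. CSM3 had log2 values of 6.71 and 6.48 at log phase, 7.56 and 7.59 at 24 h and 7.49 and 7.73 at 48 h in mus81 cells, against 6.62 and 6.90, 7.45 and 7.01, and 7.76 and 7.60 at the same ages in wild-type cells. CSM3 was higher at 48 h by 1.01 ± 0.19, adjusted p = 0.00032, in mus81 and by 0.92 ± 0.19, adjusted p = 0.000675, in wild-type cells. TOF1 had log2 values of 8.41 and 8.43 at log phase, 7.78 and 8.04 at 24 h and 7.99 and 8.02 at 48 h in mus81 cells, against 8.36 and 8.67, 7.94 and 8.31, and 7.84 and 7.81 at the same ages in wild-type cells. TOF1 changed by -0.41 ± 0.16, adjusted p = 0.0368, and -0.69 ± 0.16, adjusted p = 0.00154. MRC1 had log2 values of 8.43 and 8.44 at log phase, 7.90 and 7.69 at 24 h and 7.91 and 8.09 at 48 h in mus81 cells, against 8.23 and 8.59, 8.0 and 8.26, and 7.79 and 7.89 at the same ages in wild-type cells. MRC1 changed by -0.44 ± 0.16 and -0.57 ± 0.16 (adjusted p = 0.0271 and 0.00581). For all 3 genes the 48 h libraries lay wholly on one side of the log libraries. In mus81 cells the TOF1 call was lost without either log library (-0.42 and -0.40) or either 48 h library (-0.40 and -0.43), and the MRC1 call without either log library (-0.44 and -0.43) or the first 48 h library (-0.35). With the length trend removed both mus81 calls were lost (-0.32 for TOF1, -0.26 for MRC1), and the MRC1 call in wild type was lost without the second log library (-0.39). CTF4, which ties the helicase to the polymerase, gave -0.17 ± 0.13 and -0.27 ± 0.13 and was called in no comparison.

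In the group of histone acetylation and the Rtt101 cullin ligase, 3 of 5 were higher and 1 lower at 48 h in mus81 cells, and 1 was higher and 1 lower in wild-type cells. MMS22 and MMS1 are adaptors of the same ligase and moved in opposite directions. MMS22 had log2 values of 7.97 and 8.05 at log phase, 8.50 and 8.52 at 24 h and 8.57 and 8.87 at 48 h in mus81 cells, against 7.95 and 8.07, 8.32 and 8.16, and 8.38 and 8.55 at the same ages in wild-type cells. MMS1 had log2 values of 8.75 and 8.72 at log phase, 8.34 and 8.41 at 24 h and 8.12 and 8.21 at 48 h in mus81 cells, against 8.61 and 8.73, 8.62 and 8.75, and 8.37 and 8.23 at the same ages in wild-type cells. At 48 h both libraries of each strain were above the log libraries for MMS22 and below them for MMS1. MMS22 was higher by 0.71 ± 0.14, adjusted p = 0.000473, and 0.46 ± 0.14, adjusted p = 0.0107, and MMS1 changed by -0.57 ± 0.12, adjusted p = 0.000974, and -0.37 ± 0.12, adjusted p = 0.0161. The wild-type calls were lost without the first log (0.39) or the second 48 h library (0.37) for MMS22, which also lost it after median centring (0.33), and without the second log (-0.32) or the second 48 h library (-0.30) for MMS1. ASF1 had log2 values of 8.32 and 8.50 at log phase, 8.62 and 8.58 at 24 h and 9.20 and 9.10 at 48 h in mus81 cells, against 9.0 and 9.17, 9.11 and 8.72, and 9.0 and 9.37 at the same ages in wild-type cells. ASF1, the histone chaperone, was called at 48 h in mus81 cells (0.74 ± 0.15, adjusted p = 0.000778) and not in wild-type cells (0.10 ± 0.15), with mus81 log libraries below those of wild type. The difference between these changes was not called (0.64, with 8 features called in all). RTT101, the cullin, was called in mus81 cells (0.43 ± 0.17), a call lost without either log (0.46 and 0.40) or the second 48 h library (0.25), after quantile normalization (0.27) and after median centring (0.32), and gave 0.31 ± 0.17 in wild-type cells. RTT109, the acetyltransferase, gave -0.14 ± 0.19 and -0.03 ± 0.19 and was called in no comparison.

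In the hst3 hst4 strain, 22 of 45 genes were called between aged and log-phase cells, 19 higher and 3 lower, beside 52.2% of all features (28.6% higher, 23.6% lower). The median size of change was 0.41 for the members and 0.61 for all features. The helicase group held the largest called increases, apart from RAD55. SRS2 had log2 values of 10.21 and 10.32 in aged and 8.86 and 8.79 in log-phase hst3 hst4 cells, against 9.60 in aged and 9.25 in log-phase wild-type cells. SGS1 had log2 values of 9.66 and 9.80 in aged and 8.87 and 8.64 in log-phase hst3 hst4 cells, against 9.04 in aged and 8.98 in log-phase wild-type cells. RMI1 had log2 values of 9.37 and 9.36 in aged and 8.04 and 7.98 in log-phase hst3 hst4 cells, against 8.66 in aged and 7.54 in log-phase wild-type cells. For these 3 genes both aged mutant libraries were the highest of the 6. The aged change was 1.44 ± 0.11, adjusted p = 0.00153, for SRS2, 0.97 ± 0.13, adjusted p = 0.00423, for SGS1 and 1.36 ± 0.11, adjusted p = 0.00166, for RMI1. TOP3 had log2 values of 8.40 and 8.36 in aged and 6.41 and 4.85 in log-phase hst3 hst4 cells, against 6.67 in aged and 6.29 in log-phase wild-type cells. Its 2 mutant log libraries were 78 and 17 reads, and the change was 2.75 ± 0.51, adjusted p = 0.00953; with the replicate 1 libraries, which share a lane, alone it was 1.99. SRS2, SGS1, RMI1 and TOP3 were the 4 members called under every one of the 12 alternatives. The fit has 2 residual degrees of freedom, and without either aged mutant library only 5 members were called.

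The strand-exchange genes RAD55, RAD54, RAD59 and RAD52 were higher in aged hst3 hst4 cells, by 1.50 ± 0.24, 0.92 ± 0.14, 0.62 ± 0.15 and 0.52 ± 0.14 (adjusted p = 0.00637, 0.00593, 0.0211 and 0.0271). RAD55 had log2 values of 7.23 and 7.12 in aged and 5.96 and 5.41 in log-phase hst3 hst4 cells, against 6.56 in aged and 6.0 in log-phase wild-type cells. RAD52 had log2 values of 9.29 and 9.21 in aged and 8.86 and 8.59 in log-phase hst3 hst4 cells, against 9.05 in aged and 8.94 in log-phase wild-type cells. For both genes the aged mutant libraries were the highest of the 6. RAD52 and RAD9 were lower at 48 h in the first set and higher here, and RFA3 was higher there and lower here. The sets were scaled separately, so this was not tested. In the wild type of this set, with 1 library per age, aged minus log phase was 0.11 (RAD52), -0.10 (RAD9) and -0.21 (RFA3). Within this set the aged change of these genes was not called different between the strains. RAD9 had log2 values of 9.10 and 9.39 in aged and 8.84 and 8.79 in log-phase hst3 hst4 cells, against 9.07 in aged and 9.17 in log-phase wild-type cells. The RAD9 change (0.43 ± 0.14, adjusted p = 0.0482) was lost after quantile normalization (0.35), median centring (0.28) and with the length trend removed (0.05), and the RAD52 call after median centring (0.37). Of 12 alternatives the RAD9 call was kept in 5 and the RAD52 and RAD59 calls in 8 each. The RAD59 call was lost after quantile normalization, after median centring and without either aged mutant library, and its lowest value was 0.30. In the wild-type pair, where there is no test, aged minus log phase was 0.74 (RAD59), 0.55 (RAD55) and 0.42 (RAD54). RFA3 had log2 values of 8.58 and 8.45 in aged and 9.07 and 9.24 in log-phase hst3 hst4 cells, against 8.44 in aged and 8.65 in log-phase wild-type cells. RFA3 changed by -0.64 ± 0.13, adjusted p = 0.0115, which was lost with the length trend removed (-0.30). MEC3 had log2 values of 8.74 and 8.69 in aged and 7.96 and 7.62 in log-phase hst3 hst4 cells, against 8.23 in aged and 7.23 in log-phase wild-type cells. MEC3 was higher by 0.93 ± 0.16, adjusted p = 0.00792. RFA1 changed by -0.59 ± 0.10, adjusted p = 0.00834, and CHK1 by -0.64 ± 0.12, adjusted p = 0.00967. The RFA1 call was lost without either aged mutant library. DNA2, MRE11, YEN1, SLX1, RAD53, DDC1, RAD24 and MMS22 were higher, by 0.46 to 0.85. Of 12 alternatives, YEN1 kept its call in 10, DNA2 and MMS22 in 9 and MRE11 in 8. SLX1, RAD53 and DDC1 kept theirs in 7 and RAD24 in 6. The lowest value over the alternatives was 0.11 for SLX1, 0.13 for MMS22 and 0.24 for DNA2. MRE11 had log2 values of 8.07 and 8.03 in aged and 7.51 and 6.89 in log-phase hst3 hst4 cells, against 8.07 in aged and 7.85 in log-phase wild-type cells. YEN1 had log2 values of 8.53 and 8.64 in aged and 7.98 and 7.80 in log-phase hst3 hst4 cells, against 8.09 in aged and 8.05 in log-phase wild-type cells. In both genes the aged mutant libraries were above the log-phase mutant libraries. MEC1 was called higher (0.41 ± 0.13) but gave -0.16, not called, with the length trend removed, and after quantile normalization it was not called either (0.37).

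**Figure D5:**
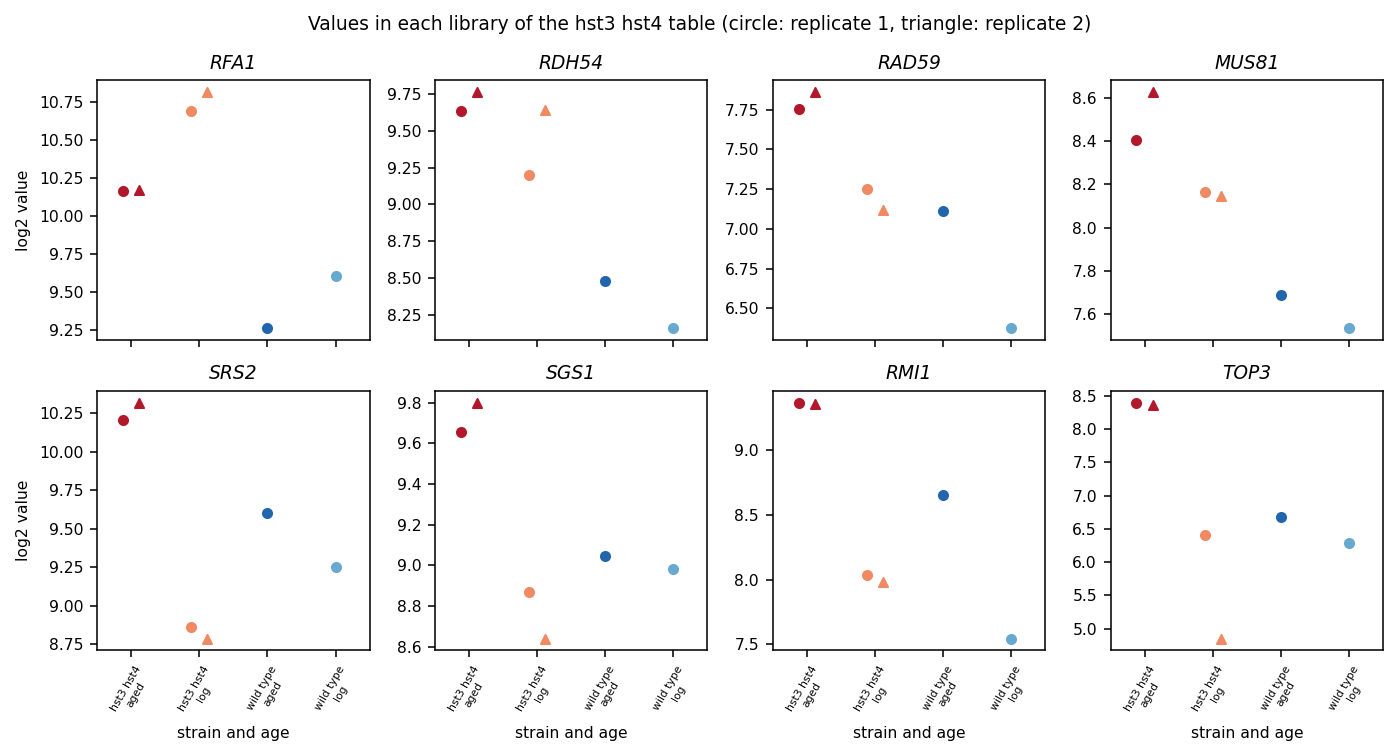
Log2 values (vertical axes, which differ between panels) of 8 genes in each library of the hst3 hst4 set, with hst3 hst4 aged and log-phase cells left of wild type aged and log-phase cells, circles for replicate 1 and triangles for replicate 2. RFA1 and RDH54 are above both wild-type libraries in all 4 mutant libraries, and SRS2 is below the wild-type libraries at log phase and above them when aged.

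Against wild type of the same age, 3 of 45 genes were called in hst3 hst4 cells at log phase, all higher, beside 17.1% of all features (8.73% higher, 8.36% lower), and 6 in aged cells, all higher, beside 16.9% (8.44% higher, 8.48% lower). Each wild-type group is 1 library, so its spread is taken from the mutant pairs. Per the column headers both wild-type libraries and replicate 1 of each mutant group came from the same lane, and replicate 2 of each mutant group from another. RFA1 had log2 values of 10.16 and 10.17 in aged and 10.69 and 10.82 in log-phase hst3 hst4 cells, against 9.26 in aged and 9.61 in log-phase wild-type cells. All 4 mutant libraries were above both wild-type ones, by 1.15 ± 0.13, adjusted p = 0.0105, at log phase and 0.90 ± 0.13, adjusted p = 0.0168, when aged. The log-phase call of RFA1 was the single one that held under all alternatives. RDH54 had log2 values of 9.64 and 9.76 in aged and 9.20 and 9.64 in log-phase hst3 hst4 cells, against 8.48 in aged and 8.16 in log-phase wild-type cells. For RDH54 too all 4 mutant libraries were above both wild-type ones, by 1.26 ± 0.22, adjusted p = 0.0251, and 1.22 ± 0.22, adjusted p = 0.0248. Both RDH54 calls were lost with no variance trend and without either aged mutant library. RAD59 had log2 values of 7.76 and 7.86 in aged and 7.25 and 7.12 in log-phase hst3 hst4 cells, against 7.11 in aged and 6.37 in log-phase wild-type cells. RAD59 was called at log phase (0.81 ± 0.18, adjusted p = 0.0434) and gave 0.69 ± 0.18 when aged, not called; the log-phase call was lost after quantile normalization (0.77), with the length trend removed (0.71), with no variance trend (0.81), with the replicate block, which is also the lane (0.82), and without either aged mutant library. MUS81 had log2 values of 8.41 and 8.63 in aged and 8.17 and 8.15 in log-phase hst3 hst4 cells, against 7.69 in aged and 7.54 in log-phase wild-type cells. In aged cells MUS81 (0.83 ± 0.17, adjusted p = 0.0344), SGS1 (0.68 ± 0.16), RMI1 (0.71 ± 0.14) and SRS2 (0.66 ± 0.13) were also called. With the replicate block, which is also the lane, these 4 calls were lost, at 0.78, 0.70, 0.72 and 0.65. With no variance trend 1 member was called in each comparison, and without either aged mutant library 1 was called at log phase and 0 in aged cells. Without the first or second log-phase mutant library 24 or 16 were called at log phase and 30 in aged cells each time. In the same libraries the summed level of 15 genes known to be induced by DNA damage was 9840 to 10030 RPM (reads relative to the library total) in aged and 3227 to 3500 RPM in log-phase mutant cells, against 2564 RPM in aged and 2076 RPM in log-phase wild-type cells. The sum of 12 daughter cell markers, 0 of them at 0 reads, was 2155 to 2177 RPM in aged and 2180 to 2424 RPM in log-phase mutant cells, against 2372 RPM in aged and 5540 RPM in log-phase wild-type cells. Between aged and log-phase mutant cells 7 of the 12 were lower and 2 higher (median log2 change -1.0), beside 23.6% and 28.6% of all features. Against wild type 10 were lower and 0 higher at log phase, and 8 were lower and 0 higher in aged cells (median -1.34). Their part in the results was not tested.

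SRS2 was the single member whose aged change differed between the strains, 1.09 ± 0.19, adjusted p = 0.0389, beside 10.3% of all features (4.29% higher, 6.03% lower): the mutant was at 8.86 and 8.79 at log phase, under the wild type at 9.25, and at 10.21 and 10.32 when aged, above it at 9.60. TOP3 gave 2.37 ± 0.88 and SGS1 0.91 ± 0.23, not called (adjusted p = 0.134 and 0.0672). The SRS2 difference ran from 0.71 to 1.15 over 12 alternatives. The SRS2 call was lost without either aged mutant library (1.15 and 1.03) and with no variance trend, and 17 or 14 members were called without the first or second log-phase mutant library. In the wild-type pair alone, where there is no test, RMI1 was the single member that differed by 2-fold or more between aged and log phase (1.11 higher), beside 12.4% of all features (8.59% higher, 3.77% lower). Values in this set moved with gene length. Across 4999 features the rank correlation of length with the aged change in hst3 hst4 cells was 0.30, and it was 0.336 for log replicate 1 minus 2 and -0.347 for aged replicate 1 minus 2. Over the 45 members these were 0.0972, -0.03 and -0.538. For the difference of the aged change between the strains it was 0.363 across all features and 0.353 over the members. Features share libraries, so these are descriptions, and the part of gene length in the results was not tested beyond the alternative with its trend removed.

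In the translocation set the 2 strains were fitted together with age. RMI1, RFA3 and CSM3 were higher and RAD52 lower at 24 h, 4 of 45 beside 32.1% of all features (21.1% higher, 11% lower). At 48 h 6 were called, RMI1, RDH54, RFA3, MEC3 and CSM3 higher and RAD52 lower, beside 40.4% (23.1% higher, 17.2% lower). RMI1 had log2 values of 5.64, 7.69 and 8.14 at log phase, 24 h and 48 h in XIIr<>V cells, against 6.43, 8.05 and 7.77 in GST-V-U cells. RAD52 had log2 values of 8.27, 6.47 and 7.12 at log phase, 24 h and 48 h in XIIr<>V cells, against 7.98, 6.90 and 6.45 in GST-V-U cells. In both strains the aged libraries lay on 1 side of the log library for these genes. RMI1 changed by 1.83 ± 0.32, adjusted p = 0.00539, at 24 h and 1.92 ± 0.32, adjusted p = 0.00282, at 48 h, and RAD52 by -1.44 ± 0.32, adjusted p = 0.0125, and -1.34 ± 0.32, adjusted p = 0.012. RFA3 had log2 values of 7.21, 8.58 and 8.14 at log phase, 24 h and 48 h in XIIr<>V cells, against 7.53, 8.35 and 8.49 in GST-V-U cells. CSM3 had log2 values of 6.23, 7.49 and 6.98 at log phase, 24 h and 48 h in XIIr<>V cells, against 6.22, 7.10 and 7.38 in GST-V-U cells. RFA3 changed by 1.09 ± 0.25 and 0.94 ± 0.25 and CSM3 by 1.07 ± 0.29 and 0.96 ± 0.29. MEC3 had log2 values of 6.42, 6.35 and 7.02 at log phase, 24 h and 48 h in XIIr<>V cells, against 5.86, 6.97 and 7.45 in GST-V-U cells. MEC3 was called at 48 h (1.09 ± 0.35, adjusted p = 0.0398) and RDH54 too (0.88 ± 0.24, adjusted p = 0.023). All 6 genes called at 48 h were called in the same direction at 48 h in wild-type cells of the first set. In those cells 63.1% of all features were called (33.1% higher, 30.1% lower). The same overlap over all features is not given here, so it is not read as particular to these genes.

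Between XIIr<>V and GST-V-U, 0 of 45 genes were called by limma, beside 0.015% of all features, and 0 members but 78 features were under an unadjusted p of 0.05. Differences ran from -0.45 (RAD10) to 0.58 (SAE2). The 2 log libraries differed with gene length, and from these data it cannot be told which of them is the unusual one: across 5001 features the rank correlation of length with the XIIr<>V minus GST-V-U difference was 0.535 at log phase, against -0.282 at 24 h and 0.162 at 48 h, and 0.436 over the 45 members at log phase. Examples follow. RAD54 had log2 values of 7.57, 7.46 and 8.02 at log phase, 24 h and 48 h in XIIr<>V cells, against 5.82, 7.92 and 7.60 in GST-V-U cells. DNA2 had log2 values of 7.61, 7.37 and 7.84 at log phase, 24 h and 48 h in XIIr<>V cells, against 6.06, 7.91 and 7.99 in GST-V-U cells. TOP3 had log2 values of 4.90, 4.01 and 4.24 at log phase, 24 h and 48 h in XIIr<>V cells, against 2.08, 6.08 and 3.34 in GST-V-U cells. TOP3 had 39 reads in the XIIr<>V and 5 in the GST-V-U log library. Without that GST-V-U library, 6 members were called at 24 h and 6 at 48 h; RDH54 (0.77), MEC3 (0.54) and CSM3 (0.95) lost their 48 h calls.

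Genes of other lists were read in the same fits. At 48 h 30.7% of all features were called higher and 29.5% lower in mus81 cells, and 33.1% and 30.1% in wild-type cells. Between aged and log-phase hst3 hst4 cells these shares were 28.6% and 23.6%. RNR1, DUN1 and RAD27 are among the genes that stand in 2 of these lists. Of 15 genes known to be induced by DNA damage, 10 were higher and 2 lower at 48 h in mus81 cells and 10 higher and 1 lower in wild-type cells. HUG1, a small inhibitor of ribonucleotide reductase, changed by 2.72 and 5.09. HUG1 was higher in mus81 than in wild-type cells at log phase (1.61, adjusted p = 0.00275), and its 48 h changes differed by -2.37 (adjusted p = 0.00634). UBI4, polyubiquitin, changed by 1.95 and 2.51. In hst3 hst4 cells 9 were higher when aged, with HUG1 at 4.16 and RNR3, a ribonucleotide reductase subunit, at 3.19. Against wild type HUG1 was higher by 4.83 at log phase and 5.35 when aged. Among 24 G1/S genes 12 were lower in mus81 and 16 in wild-type cells at 48 h and 0 were higher in either, with RNR1 at -1.55 and -1.86 and POL30, the sliding clamp, at -0.89 and -1.09. In hst3 hst4 cells 6 of the 24 were higher and 3 lower when aged. Of 19 meiotic recombination genes, 16 were higher and 0 lower at 48 h in both strains, such as SPO11, which makes meiotic breaks, at 3.27 and 4.18. Their summed level was low, 273.3 to 325.5 RPM at 48 h in mus81 cells and 233.3 to 303.2 in wild-type cells, against 67.43 to 74.47 and 62.97 to 66.87 at log phase. Of 29 other recombination and repair genes, 8 were higher and 6 lower in mus81 cells and 8 higher and 7 lower in wild-type cells. PSY3, a Shu complex subunit, changed by 2.00 and 2.23. Of 10 other checkpoint genes 0 were higher and 5 were lower in each strain, among them PPH3 at -1.07 and -1.26 and PTC2 at -0.91 and -1.14, both phosphatases that act on the checkpoint.

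Markers of daughter cells were lower with age in the mus81 set. Of 12 such genes 10 were lower and 0 higher at 48 h in mus81 and in wild-type cells. Of all features, 29.5% and 30.1% were lower. In any library 0 of the 12 markers were at 0 reads. Their summed level was 1501 to 1604 RPM at 48 h against 2410 to 2852 at log phase in mus81 cells, and 1952 to 2458 against 2629 to 3478 in wild-type cells. In the translocation set it was 1944 to 2424 in XIIr<>V and 2108 to 2727 in GST-V-U cells over the 3 ages. The part of these cells in the results above was not tested.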

How the data were processed

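The 3 tables hold log2 values per feature as deposited by the authors: per the file values they are log2 of reads scaled to the library, with 0 reads entered as 0.9 reads. Whole reads were recovered from each column (low features under 60 reads were whole within 0.02). Per the submitters' processing notes, Trim Galore 0.6.6, HISAT2 2.1.0 and the R64 build were used. For the read counter, its strand setting and the scaling, no statement was found: these are not given in the sources. Per the labels' protocols, libraries were poly(A)-selected and directional.

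Each table was scaled separately, so tests stay within a table. Features above the library's floor in at least 2 libraries were tested with limma 3.58.1 (R 4.3.3) with a variance trend, and Benjamini-Hochberg adjusted p over all features. The mus81 set was fitted as 6 groups, the hst3 hst4 set as 4 groups, 2 of them lone libraries, and the translocation set with additive strain and age. The fits were tested on simulated data.

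Depth ran from 1656535 to 11330955 reads per library, which limits the precision of members with few reads. All 45 members had the same coordinates in the R64 reference (RefSeq), from which the promoter windows were read; 4 overlap a gene on the other strand (MMS4, RAD10, TOP3 and RAD24).

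The members, lists and tests were chosen with earlier results of these data known. Values in every library are given for MUS81, MMS4 and up to 3 members per role with the largest change among those called in any comparison, and for up to 4 genes of each other list the change. RAD59, SGS1 and RAD54 were given in addition, chosen after their values were seen, as were MUS81 and SRS2 in the sets beyond the first. Alternatives were quantile normalization, median centring, no filter, a mean above the 25th percentile, no variance trend and limma voom on the recovered reads. A replicate block was also fitted in the mus81 and hst3 hst4 sets. The mus81 set was fitted with only the groups compared and without each library in turn. In the hst3 hst4 set only the mutant libraries were left out in turn. Removal of a gene length trend and leaving out the GST-V-U log library were chosen after seeing the data.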

Additional observations from a re-analysis of the deposited data

Results flagged for a closer look

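SRS2, a helicase that limits recombination, was the single result that met the rule for a change that differs between strains. Its aged change was 1.089 higher in hst3 hst4 than in wild-type cells on the log2 scale (SE 0.19, limma adjusted p = 0.0389), from 2 mutant libraries per age and 1 wild-type library per age. Over 12 alternatives the difference ran from 0.71 to 1.15. The difference had the same sign in all 3 fits that changed the libraries named here: 1.15 without the first aged mutant library, 1.03 without the second and 0.99 with the replicate 1 libraries of 1 lane alone, but it was not called in the first 2, has no test in the third, and was not called with no variance trend. The aged and log-phase mutant libraries differed in other genes too: the summed DNA damage induced genes stood at 9840 to 10030 RPM (reads relative to the library total) in aged and 3227 to 3500 in log-phase mutant cells, against 2564 in aged and 2076 in log-phase wild-type cells. Their part in the result was not tested.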

How the results depend on the processing

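Of 115 gene results, 115 kept direction and call with no filter, 113 with voom, 100 with median centring, 92 with the length trend removed, 87 with no variance trend and 82 with quantile normalization; of 107, 106 kept them with a mean above the 25th percentile. TOP3 reversed under quantile normalization in wild-type cells (-0.026 at 48 h, -0.077 at 24 h, neither called) and MEC1 in aged hst3 hst4 cells with the length trend removed (-0.16, not called). The number of members called moved as follows. Between 24 and 48 h it was 0 in mus81 cells, but 1 with quantile normalization, a mean above the 25th percentile, the length trend removed or either block, and 2 with voom or only the groups compared; in wild-type cells it was 3, but 5 with a mean above the 25th percentile and 1 with only the groups compared. At 24 h against log phase in wild-type cells it was 10, but 3 with only the groups compared. For mus81 against wild type it was 1 at each age, but 0 at log phase with quantile normalization or no variance trend and 2 with the tag block (ASF1 added); 0 at 24 h with no variance trend and 2 with the length trend removed or the number block (MEC3 added); and 0 at 48 h with no variance trend. The higher mean filter removed MUS81 itself, which was then not tested, and left 0 at log phase and 48 h and 1, MEC3, at 24 h. For hst3 hst4 against wild type at log phase it was 3, but 6 with median centring, 1 with no variance trend and 8 with the length trend removed; in aged cells it was 6, but 1 with no variance trend and 3 with the block (MUS81, SGS1, RMI1 and SRS2 lost, TOP3 gained); the difference of changes gave 1, but 0 with no variance trend and 2 with the block. In the translocation set it was 4 at 24 h, but 8 with the length trend removed, and 6 at 48 h, but 3 with no variance trend. Leaving out 1 library gave 15 to 22 (mus81 48 h), 16 to 23 (wild type 48 h), 8 to 15 (mus81 24 h), 3 to 15 (wild type 24 h), 0 to 2 and 0 to 9 (48 h against 24 h, mus81 and wild type), 0 to 2, 0 to 4 and 0 to 1 (mus81 against wild type at log phase, 24 h and 48 h), 0 to 1 and 0 to 0 (difference of the 24 h and 48 h changes), 5 to 30 (hst3 hst4 aged), 1 to 24 and 0 to 30 (hst3 hst4 against wild type, log phase and aged), 0 to 17 (difference of their changes), 6 and 6 (translocation 24 h and 48 h) and 0 (XIIr<>V against GST-V-U). For the translocation set this was 1 fit, without the GST-V-U log library. In the hst3 hst4 set the lone wild-type libraries were never left out. Causes were not tested. In the mus81 set the difference between the 2 replicates of one group was correlated with that of each other group. By replicate number the correlation ran from -0.13 to 0.56, with 6 of 15 pairs of groups over 0.1. The highest was between the log groups of the 2 strains. By library tag 4 of 15 were over 0.1. Whether numbers or tags pair the samples cannot be told from these correlations. With the replicate block by number 73 of 73 gene results of the mus81 set kept their call. In the hst3 hst4 set, where the number is also the lane, 24 of 32 did. Quantile normalization moved the share of higher calls in aged hst3 hst4 cells to 43.7% of calls, against 54.9% as deposited. Depth limits TOP3, with 5 to 39 reads in the translocation log libraries.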
